A study of Gossypium barbadense and Gossypium hirsutum with 8 samples.

Results

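Probe sets are described here whose signal in fibre of all 6 inbred lines of a cotton cross lay outside the range set by the 2 parents of that cross. The 200 probe sets were chosen from 14417 on the array: the 100 in which the lowest line lay furthest above the higher parent, and the 100 in which the highest line lay furthest below the lower parent. The distance used, called the gap here, is the log2 difference between the nearest line and the nearest parent, on values of log2(signal + 16) after quantile normalization, which gives all arrays one distribution of values. Because the members were chosen by this distance on these 8 arrays, the gaps are given as a description and carry no test.

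A cotton fibre is a single cell of the seed coat that elongates greatly after flowering. Upland cotton, Gossypium hirsutum, and extra-long-staple cotton, G. barbadense, both carry a pair of ancestral genomes, one of them related to that of G. raimondii. Inbred lines from a cross often show levels outside the parental range, known as transgressive levels. Such levels are known to arise where a line combines alleles of both parents.

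Fibre was taken at 10 days post anthesis, in rapid elongation, from high-yielding backcross inbred lines (HY BILs; NMGA144, NMGA017 and NMGA026 as HY1, HY2 and HY3), low-yielding BILs (LY BILs; NMGA066, NMGA095 and NMGA023 as LY1, LY2 and LY3), the high-yielding parent SG747 (G. hirsutum) and the low-yielding parent Giza75 (G. barbadense). The design text exchanges the names of HY1 and HY3, both of them high-yielding. Each of the 8 genotypes had 1 Affymetrix cotton array, hybridized with biotin-labelled RNA from fibre stripped off the ovules. Differences between lines, preparations and arrays therefore cannot be told apart, and each edge of the parental range is a single value with no error. The field in which each fibre sample grew is not given in the sources used here.

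The probe-set identifiers could not be paired with genes: 0 matched the 74561 genes of a G. barbadense reference table, and the deposited table holds no names. The fibre label was for the same reason not checked against marker genes. The leading above-range member is called by its array identifier, and the others by direction and rank of the gap. Whether probes bind transcripts of both species equally was not tested, so a low signal need not mean a low transcript level.

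In all, 283 of the 14417 probe sets (1.96%) had every line above both parents, and 429 (2.98%) had every line below. With fewer arrays there are fewer conditions to meet, and the counts were 480 and 757 without HY3 and 428 above without LY3, and 2515 and 2791 with Giza75 alone or 1181 and 1937 with SG747 alone as the range. A few members stood far outside the parental range, and the rest lay close to its edge. The gap was at least 2-fold in 3 of the 100 above-range and 2 of the 100 below-range members, and at least 1.5-fold in 12 and 3. The median gap was 0.30 above and 0.25 below on the log2 scale. At the border of the selection the 100th member above had a gap of 0.174 and the next probe set 0.173, and below the values were 0.1677 and 0.1676. The gap exceeded the member's own SD over the 6 lines in 36 above-range and 64 below-range members.

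**Figure D1:**
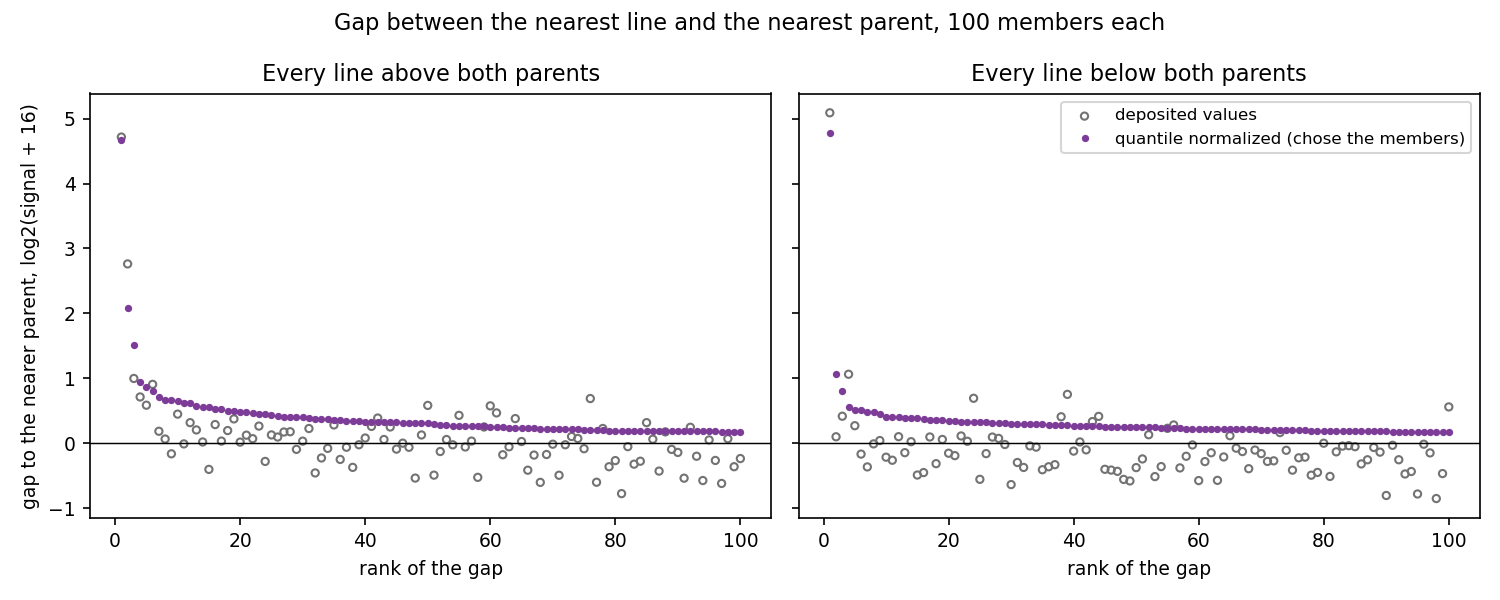
Gap of each of the 100 members above (left) and below (right) the parental range, in log2 of signal + 16, against its rank, on quantile normalized values (filled) and on the deposited values (open). The largest gaps, 4.67 above and 4.78 below, stand apart, the 100th lie at 0.174 and 0.168, and open points under 0 are members whose lines overlap the parental range on the deposited values.

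The leading above-range member was RPTR-Ghi-U57609-2_s_at. Its prefix stands for reporter on Affymetrix designs and covers 52 probe sets of this array. What the probe set detects is not given in the sources used here, so its level is not read as that of a cotton transcript. Its signal was 962.5, 1180.4 and 1273.4 in HY1, HY2 and HY3 and 8500, 1278.9 and 2890.7 in LY1, LY2 and LY3, against 21.2 in SG747 and 16.3 in Giza75. Every line was thus far above both parents, with LY1 highest. In the lines the probe set ranked between percentiles 94.3 and 99.8 of the array, against 49.1 in SG747 and 49.2 in Giza75. The lowest line had 45.4 times the signal of the higher parent, and the gap was 4.67 (log2; 4.72 on the deposited values). Among the lines the highest signal was 8.83 times the lowest.

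Of the 52 RPTR probe sets, 4 passed the filter on low values and 2 of those were members. The second, above-range rank 64, was much dimmer, with 12.6, 12.7 and 41.9 in the HY BILs and 51.3, 61.3 and 17.7 in the LY BILs, against 3.3 in SG747 and 6 in Giza75. Of the other 2 RPTR probe sets past the filter, 1 was among the brightest on every array. It had 8472 to 10627 in the lines and 7985 and 11007 in SG747 and Giza75, with every line between the parents. The other had 8.5 to 19.3 in the lines and 13 and 17.8 in the parents. A control probe set, for P1 cre by its identifier, had signals near those of the bright RPTR probe set. They were 8907 to 11625 in the lines and 8933 and 11507 in SG747 and Giza75. What the bright RPTR probe set and above-range rank 64 detect is not given either, so their signals are not read as transcript levels.

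Above-range rank 2, a G. hirsutum probe set by its identifier, had deposited signals close together in the lines. Its signal was 261.6, 191.4 and 188.9 in the HY BILs and 212.4, 223.9 and 221.8 in the LY BILs, against 12.6 in SG747 and 14.2 in Giza75. The lines averaged 216.7 ± 26.6 (SD, n = 6), the highest of them 1.39 times the lowest, and the lowest had 13.3 times the signal of the higher parent. After normalization the lines lay further apart, with an SD of 0.64 on the log2 scale, against a median SD of 0.38 among above-range members. Its gap was 2.09 on the quantile normalized and 2.76 on the deposited values. The other probe set on the array with the same design-cluster number was near background everywhere, at 0.4 to 9.3 in the lines and 0.9 and 5.7 in SG747 and Giza75.

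The next above-range members had smaller gaps. Rank 3 had 68.5, 111.1 and 53.5 in the HY BILs and 268.8, 73.7 and 30.1 in the LY BILs, against 7.1 in SG747 and 1.1 in Giza75. The 20 other tested probe sets with its design-cluster number had normalized gaps from -2.399 to 0.143. Rank 4 had 85.9, 305.8 and 157.4 in the HY BILs and 191.2, 166.8 and 135 in the LY BILs, against 46.2 and 37.2 in the parents. Rank 6, the most even of these, had 28.6, 41 and 36.2 in the HY BILs and 43.9, 45.2 and 48 in the LY BILs, against 7.8 and 4.5 in SG747 and Giza75. In all 3 every line was above both parents on the deposited values too, with gaps of 1.00, 0.71 and 0.91.

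Rank 7 above the range had lines of 2 kinds. Its signal was 595.2 in HY1, 1158.4 in HY2, 821.1 in LY1 and 673.9 in LY2, but 40 in HY3 and 36.8 in LY3, against 30.5 in SG747 and 14.2 in Giza75. Its deposited gap of 0.18 rests on HY3 and LY3, and in the other four lines the signal was many times that of either parent. Rank 8 was bright in the parents as well, with 255.2, 291.5 and 212.4 in the HY BILs and 392.4, 351.4 and 159.2 in the LY BILs, against 151.6 and 109.2 in SG747 and Giza75. Rank 9 had 144.2, 210 and 189.2 in the HY BILs and 749.6, 363.8 and 96.8 in the LY BILs, against 110.4 and 25.4, so that LY3 lay under SG747 on the deposited values. Other tested probe sets with the same design-cluster number had normalized gaps of -0.595 for rank 8, and -0.908 and -0.064 for rank 9. The first and last of these were dim, at 2.4 to 19.8 and 9.7 to 62.3 in the lines. Rank 10 was near background on all arrays, at 8 to 30.5 in the lines against 1.6 and 1 in the parents.

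**Figure D2:**
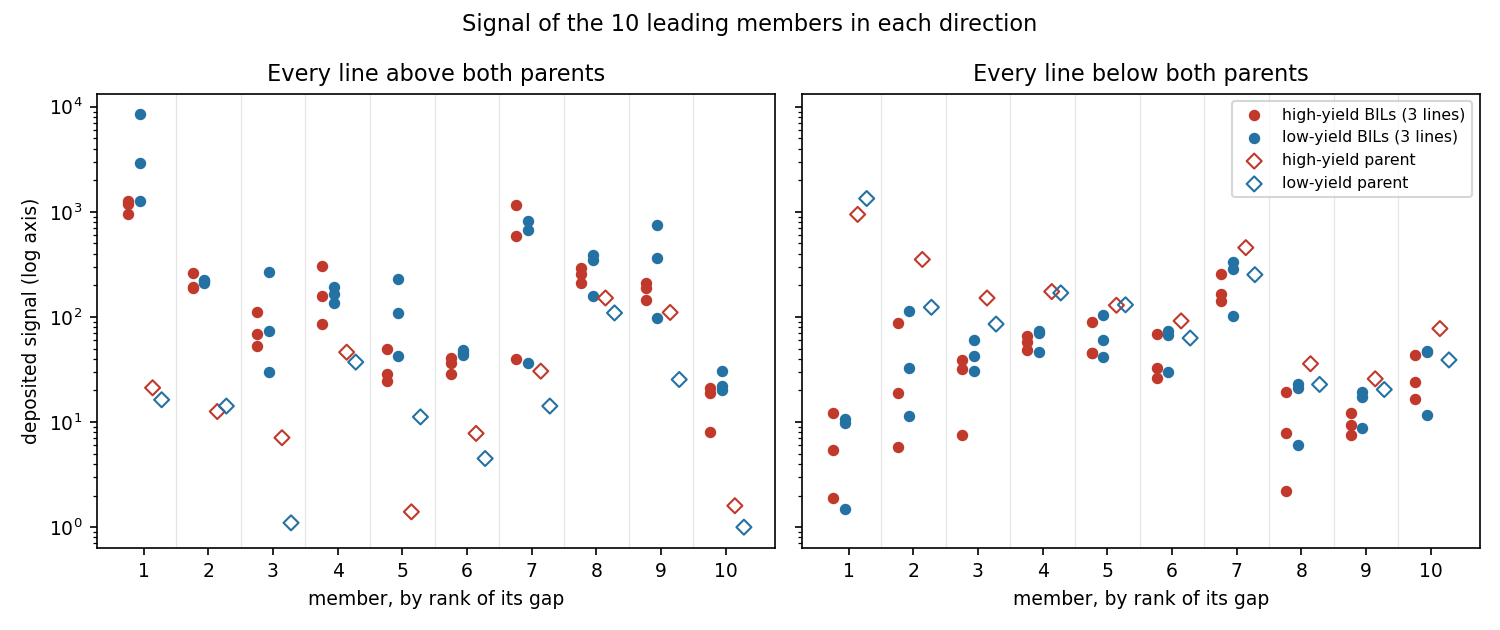
Deposited signal (log axis) of the 10 members with the largest gap above (left) and below (right) the parental range: filled circles are single lines, open diamonds the parents, 1 array each. The leading member above runs from 962.5 to 8500 in the lines against at most 21.2 in the parents, and the leading member below from 1.5 to 12.2 against 945.3 and 1338.7.

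The leading below-range member, also a G. hirsutum probe set, was bright in both parents and near background in every line. Its signal was 5.4, 12.2 and 1.9 in the HY BILs and 10.8, 9.8 and 1.5 in the LY BILs, against 945.3 in SG747 and 1338.7 in Giza75. It ranked between percentiles 16.1 and 36.6 in the lines, against 93 in SG747 and 96.5 in Giza75. The lower parent had 77.5 times the signal of the highest line, and the gap was 4.78 on the log2 scale (5.09 on the deposited values). No other probe set on the array carried its design-cluster number. SG747 and Giza75 differed by -1.02 for it (log2, SG747 minus Giza75).

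Below-range rank 2, a G. hirsutum probe set too, varied widely among the lines. It had 5.8, 88.3 and 18.9 in the HY BILs and 114.4, 32.5 and 11.5 in the LY BILs, against 352.4 in SG747 and 123.6 in Giza75. HY2 and LY1 came near Giza75, and the gap was 1.07 after normalization but 0.10 on the deposited values. Rank 3 had 7.6, 32.3 and 39.1 in the HY BILs and 42.7, 60.2 and 30.7 in the LY BILs, against 151.5 and 85.6 in the parents. Rank 4 was more even, with 49, 58.2 and 65.7 in the HY BILs and 72.8, 70.9 and 46.9 in the LY BILs, against 174.4 in SG747 and 169.4 in Giza75. Its lower parent had 2.33 times the signal of the highest line, and its gap was larger on the deposited values (1.06) than after normalization (0.55).

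Ranks 5 to 10 below the range had gaps of 0.41 to 0.51. Rank 5 had 45.4, 89.2 and 45.8 in the HY BILs and 60.7, 104.5 and 41.4 in the LY BILs, against 129.2 and 130.5 in SG747 and Giza75. The other probe set with its design-cluster number was far brighter, at 2410.1 to 3800.9 in the lines against 5209.7 and 2918.5 in the parents. Only LY3 lay under both parents there. Rank 7, the brightest of ranks 5 to 10, had 142.2, 258.7 and 163.8 in the HY BILs and 288, 330.2 and 101.5 in the LY BILs, against 456.5 and 252.6. For ranks 6, 7, 8 and 10 at least 1 line lay above the lower parent on the deposited values. With only 1 parental array, 7 gaps among ranks 1 to 10 became more than 1.5 times as large. Without SG747 they were 1.12 and 1.83 for above-range ranks 7 and 9, and 1.05 and 1.02 for below-range ranks 4 and 5. Without Giza75 they were 1.65 for above-range rank 5, and 1.85 and 0.76 for below-range ranks 2 and 10. Ranks 11 to 100 had gaps of 0.17 to 0.62 above and 0.17 to 0.40 below.

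The outlying position of most members depended on the scale. On the deposited values 52 of the 100 above-range and 26 of the 100 below-range members still had every line outside the range, and 9 and 6 of the leading 10. Over all probe sets, 104 (0.721%) lay above and 575 (3.99%) below on the deposited values, so that 15.3% of those outside were above and 84.7% below, against 39.7% and 60.3% after quantile normalization and 21.0% and 79.0% after median centring. A gap of at least 1.5-fold on both scales was found in 6 above-range members, rank 5 being exactly at that limit on the deposited values, and in 1 below-range member, and of at least 2-fold in 2 and 1.

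Which lines left the outlying side on the deposited values went with the brightness of their arrays. Members had every line outside the range after normalization, and returning to the deposited values raises the brighter arrays against the dimmer ones. The split of lines is therefore not independent of the selection. Array medians were 13.5, 26 and 15.7 in HY1, HY2 and HY3 and 36.3, 30.5 and 13.2 in LY1, LY2 and LY3, against 22.3 in SG747 and 17.0 in Giza75, so the parents lay between the brighter and the dimmer lines. Above the range, all 100 members stayed above both parents in HY2, LY1 and LY2, and 78, 77 and 65 did so in HY1, HY3 and LY3. Below the range, all 100 stayed below both parents in HY1, HY3 and LY3, and 57, 44 and 44 in HY2, LY1 and LY2. The part of array brightness in the members' levels was not tested. The ratio of 5' to 3' signal of 3 control transcripts, a measure of RNA integrity, gave overlapping ranges for lines and parents. For ss1 it was 0.108 to 0.428 in the lines against 0.211 and 0.345 in SG747 and Giza75. It was 0.266 to 0.658 against 0.484 and 0.584 for ubq11, and 0.124 to 0.217 against 0.189 and 0.148 for actin. Brighter and dimmer lines differed in 2 of these ratios. By line, ss1 was 0.408, 0.428 and 0.324 in HY2, LY1 and LY2, against 0.108, 0.1855 and 0.271 in HY1, HY3 and LY3. For ubq11 the values were 0.658, 0.598 and 0.481 against 0.266, 0.312 and 0.3805, while for actin the lines overlapped. The part of RNA integrity in the members' levels was not tested.

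**Figure D3:**
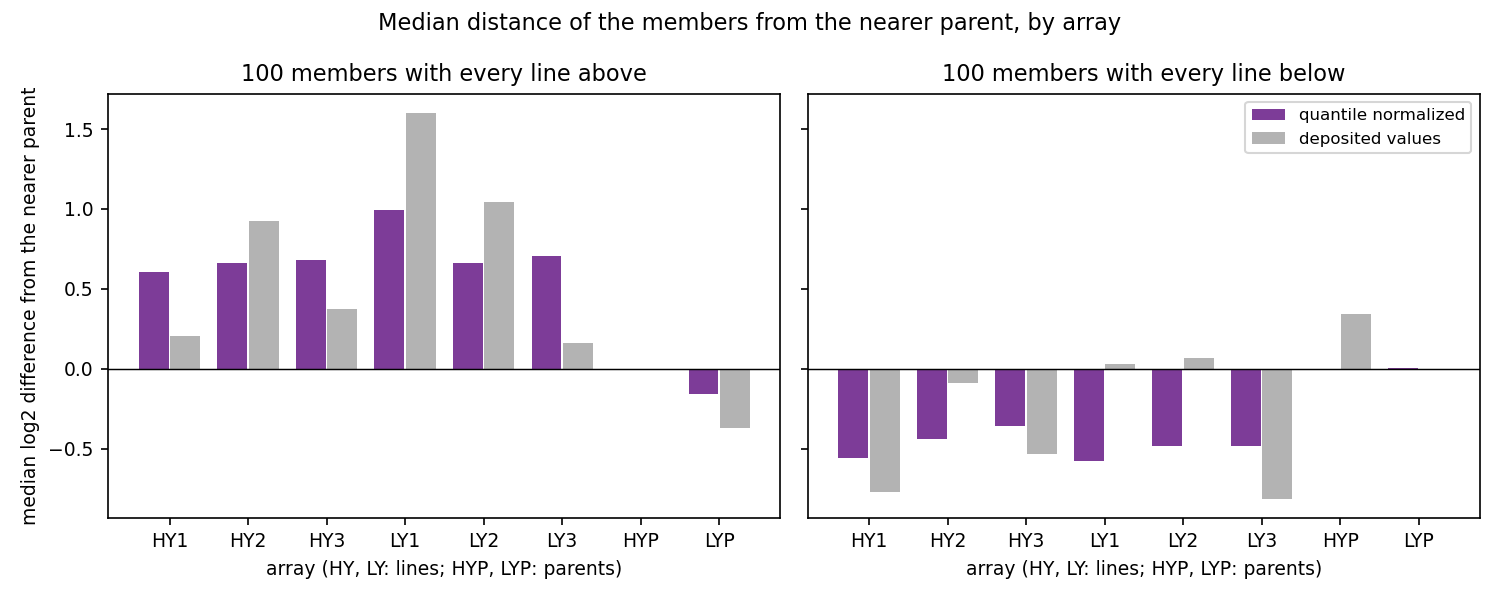
Median difference of the 100 above-range (left) and 100 below-range (right) members from the nearer parent, in log2 of signal + 16, for each array, after quantile normalization (dark) and on the deposited values (light). On the deposited values the above-range median runs from 0.16 in LY3 to 1.60 in LY1, and the below-range median from -0.81 in LY3 to 0.07 in LY2.

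Among the lines, LY1 stood furthest out for above-range members. After normalization their median distance from the nearer parent was 0.61, 0.66 and 0.68 in HY1, HY2 and HY3 and 0.99, 0.66 and 0.70 in LY1, LY2 and LY3. LY1 was the highest line for 47 of the 100, where it was the highest line for 16.8% of all probe sets tested, and it was the line nearest the parents for 3. The nearest line was otherwise spread evenly, with 19 or 20 members each for the remaining lines. Below the range the medians were -0.56, -0.44 and -0.36 in the HY BILs and -0.58, -0.48 and -0.48 in the LY BILs. LY1, LY3 and HY1 were the lowest line for 28, 27 and 24 of the 100, against 22.2%, 25.2% and 12.1% of all probe sets. The highest, lowest and nearest lines come from the values that chose the members, so these counts are not independent of the rule.

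The nearer parent was SG747 for 68 of the above-range members and Giza75 for 32, and below the range 51 and 49. The parents lay close together in most members, as a rule that needs both on one side of all lines favours. SG747 and Giza75 were at least 2-fold apart in 3 above-range members and 1 below-range member, against 17.6% of all probe sets tested. Above the range the median log2 difference was 0.77 for the HY BILs and 0.89 for the LY BILs against SG747, and 0.91 and 1.11 against Giza75. Below the range it was -0.52 and -0.57 against SG747, and -0.59 and -0.66 against Giza75. These comparisons share the parental arrays.

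High-yield and low-yield BILs were compared next in a limma fit over all 14417 probe sets. The choice of members did not use the yield groups, but it used the lowest or highest of the same 6 line values. It therefore bears on their spread. The median SD over the lines was 0.38 in above-range and 0.21 in below-range members, against 0.39 over all probe sets tested. Shares of members set beside those of all probe sets are thus not free of the rule. With Benjamini-Hochberg adjustment 0 of the 200 members and 0 of the 14417 (0%) passed an adjusted p of 0.05 in limma, the lowest adjusted p being 0.994. At an unadjusted p under 0.05 in the same fit there were 6 above-range and 0 below-range members, against 305 of all probe sets (2.12%). All 6 were lower in the HY BILs, where 200 (1.39%) of all probe sets were lower and 105 (0.728%) higher. With a 2-fold difference as well, 2 members remained, both lower in the HY BILs, against 102 of all (0.707%), of which 88 (0.61%) were lower. Those 2 became 0 without HY1 or without LY1, 7 without LY2 and 8 without LY3, where the counts over all probe sets were 77, 25, 274 and 774. The yield groups did not overlap for 15 of the 200 members, a share of 7.5% near the 6.21% of all probe sets. Of the 15, 7 were higher in the HY BILs (4.18% of all probe sets) and 8 lower (2.03%).

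Above-range members had a median difference of -0.13 (HY minus LY, log2), with 31 higher and 69 lower in the HY BILs. Below-range members had 0.08, with 70 higher and 30 lower. Over all probe sets tested the median was 0.04 and 54.8% were higher in the HY BILs. The above-range median moved with LY1: without that line it was -0.06, and 54 of the 100 were lower in the HY BILs.

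The member lower in the HY BILs with the lowest p was above-range rank 5. It had 24.8, 50.1 and 28.4 in the HY BILs and 227.5, 109.5 and 42.9 in the LY BILs, against 1.4 in SG747 and 11.2 in Giza75. On the deposited values HY2 lay above LY3, and the groups were apart only after normalization. The log2 difference was -0.93 ± 0.31 (SE; limma, adjusted p = 0.994). The member higher in the HY BILs with the lowest p was below-range rank 75, with 33.6, 72.2 and 37.9 in the HY BILs and 49.8, 62.9 and 17 in the LY BILs, against 78.2 and 50.1 in SG747 and Giza75. Its difference was 0.53 ± 0.26 (SE; limma, adjusted p = 0.994), and its groups too overlapped on the deposited values.

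The leading members were no closer to a call between the yield groups. The RPTR member averaged 1139 ± 160 in the HY BILs and 4223 ± 3790 in the LY BILs (SD, n = 3 each), with a log2 difference of -1.23 ± 0.65 (SE; limma, adjusted p = 0.994). Without LY1 that difference was -0.52, and without LY2 it was -2.10. Above-range rank 2 averaged 214 ± 41.3 in the HY BILs and 219 ± 6.12 in the LY BILs in deposited signal. Its HY minus LY difference was 0.31 ± 0.47 (log2, SE) after normalization and -0.05 on the deposited values, so its direction turned with the scale. The leading below-range member averaged 6.50 ± 5.24 in the HY BILs and 7.37 ± 5.11 in the LY BILs in deposited signal. Its difference was 0.08 ± 0.22 (SE) after normalization and again -0.05 on the deposited values. Below-range rank 2 averaged 37.7 ± 44.3 in the HY BILs and 52.8 ± 54.4 in the LY BILs, with a normalized difference of -0.10 ± 0.48 (SE). The normalized differences of these last 3 were smaller than their standard errors.

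**Figure D4:**
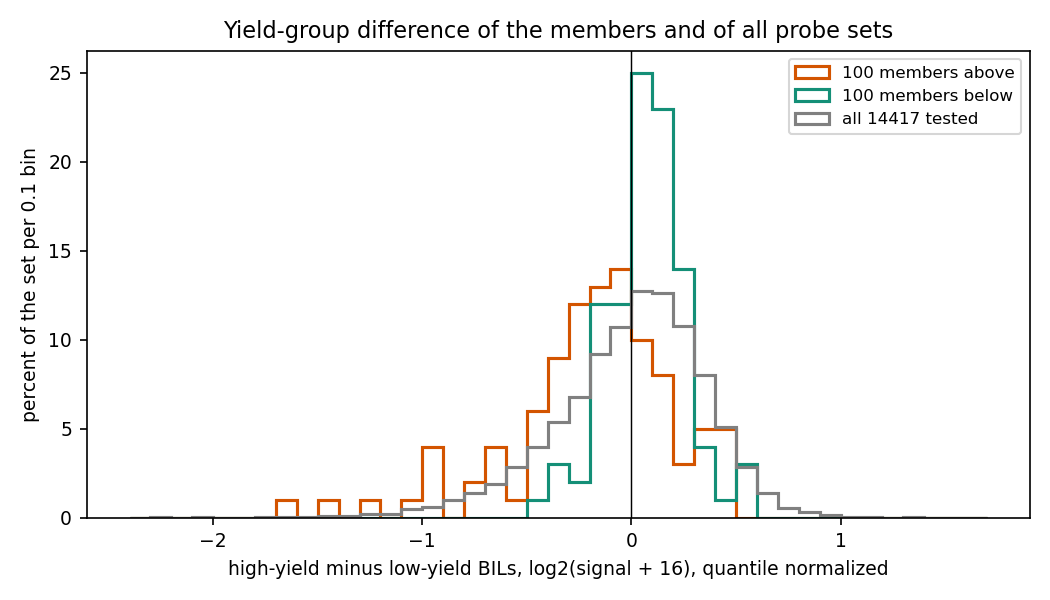
Distribution of the difference between high-yield and low-yield BILs (log2 of signal + 16, quantile normalized) in above-range members, below-range members and all 14417 probe sets, as percent of each set per bin. The above-range members have a median of -0.13 and reach -1.70, and the below-range members a median of 0.08 and lie between -0.44 and 0.55.

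A limma fit of the 6 BILs against the 2 parents, the contrast that chose the members, passed an adjusted p of 0.05 for 2 of the 14417 probe sets (0.0139%), which were the leading member in each direction. Nothing is read from that count, since the members were chosen on it, and it was 1 without HY1, HY2, HY3, LY3 or Giza75 and 89 without SG747.

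Identifier classes, which the rule did not use directly, were then set against all probe sets tested. Identifiers starting with Gra, for sequences of G. raimondii, made up 25 of the 100 below-range and 3 of the 100 above-range members, against 17.7% of all tested, and those starting with Ghi, for G. hirsutum, 73 and 95, against 81.7%. Over the whole table, 5.09% of the Gra probe sets had every line below both parents and 0.744% every line above, against 2.50% and 2.22% of the Ghi probe sets. Gra probe sets were dimmer, with a median signal of 37.4 against 104. Among probe sets under the middle level, 6.25% of Gra and 2.57% of Ghi probe sets lay below the range, while in the upper part the shares were 2.28% and 2.45%. The filter on low values is part of the rule, so a share found among dim probe sets is not independent of it. The share of identifiers ending in _s_at, which mark probes shared between transcripts, was 32 of 100 above and 45 of 100 below, against 44.2%.

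Members were dim rather than bright. Of the above-range members 24, 31, 18, 20 and 7 fell into 5 equal bins of the tested probe sets from low to high level, and of the below-range members 30, 24, 19, 19 and 8. The filter on low values uses the mean of all 8 arrays, so a dim probe set could pass through the side on which it was high. The bins use the same mean and are therefore not independent of the rule.

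Probe sets with the same design-cluster number as a member but not selected themselves were counted by side. For above-range members there were 105 such probe sets, of which 5 (4.76%) had every line above both parents, against 1.96% of all tested, and 4 had every line below. Of the 105, 57 belonged to the cluster of above-range rank 60 and 20 to that of rank 3. The mean of the lines was above the mean of the parents for 65 of the 105 (61.9%), against 46.8% of all tested. For below-range members there were 24, of which 2 (8.33%) had every line below, against 2.98%, and 0 every line above. The mean of the lines was below the mean of the parents for 21 of these 24, against 53.2% of all tested. They share the arrays with the members, so they are not independent of them. The 2 RPTR members have no cluster number. Each of the others among the 200 had one that no other member in its direction shared.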

How the data were processed

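The authors deposited 1 intensity per probe set and array, on a linear scale; GCOS and MAS5 are listed in the submitters' processing notes, and versions and scaling are not given in the sources used here. All 8 columns were matched by sample identifier, and no pair of arrays shared more than 1.19% of values. The 103 AFFX controls were dropped from 24132 rows. Intensities were taken as log2(value + 16), which understates changes of dim probe sets, quantile normalized over 8 arrays, and the 40% with the lowest mean left out. The members and lists were chosen with earlier results of these data known. Tests were made with limma 3.58.1 (R 4.3.3; lmFit, then eBayes with a trend on intensity), Benjamini-Hochberg adjustment and a threshold of 0.05, and were tested on simulated data; plots used matplotlib 3.10.9. P-values measure the joint spread of line, preparation and array. The number of arrays limits the precision. Described one by one were members among ranks 1 to 10 per direction and, per direction, the member with the lowest p between yield groups; the rule's other 3 array identifiers are not printed and those members are called by rank. Gene and marker lists could not be applied without gene names. No sequence was given.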

Additional observations from a re-analysis of the deposited data

Results flagged for a closer look

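The 6 lines were examined for a single line far from the others in 21 probe sets, and 2 had one. The probe sets were the 10 leading members in each direction and 1 more named member. A rate of about 1 in 20 holds for groups not chosen on their values. The members were chosen on these line values and share the arrays, so the 2 are not set against that rate. In above-range rank 9, LY1 had 749.6 against 96.8 to 363.8 in the other lines. In below-range rank 5, LY1 had 60.7, which after normalization was far under the other lines, while on the deposited values LY3 was lowest at 41.4. LY1 was the brightest array by its median.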

How the results depend on the processing

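Every alternative was planned. Between yield groups, 0 probe sets passed the adjusted threshold in limma under each (lowest adjusted p 0.288 to 1). On the deposited values 104 probe sets lay above the range; 51 above-range members were selected again and 51 stayed outside (1 failed the filter), and 11 and 26 below; 3 probe sets of above-range clusters followed; the yield groups did not overlap for 394 probe sets and 7 members. There the gaps of above-range rank 9 and below-range ranks 6, 7, 8 and 10 turned to -0.16, -0.17, -0.37, -0.011 and -0.22, and the yield differences of above-range rank 2 and below-range rank 1 to -0.05 each (-0.048 and -0.055). Median centring gave 809 below the range and selected 31 below-range members again. At an unadjusted p under 0.05 and 2-fold, a pseudocount of 1 gave 225 probe sets and 5 members, a pseudocount of 64 gave 40, and 1 probe set then differed between BILs and parents. With no filter 609 lay above and 825 below, 44 below-range members were selected again, 11 of the above-range clusters followed and 1838 did not overlap. Leaving out the lowest 60% tested fewer probe sets: 146 lay above and 253 below, the 54 and 53 members still tested stayed outside and were selected, 1 followed in each direction, 1 differed between BILs and parents, 62 probe sets and 1 member passed p and fold, and 494 and 7 did not overlap. Without _s_at and _x_at, which also tests fewer, 254 lay below, the 61 and 53 members tested stayed and were selected, 3 and 1 followed, 1 differed between BILs and parents, 31 passed p and fold and 525 did not overlap.

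Leaving out 1 array at a time, 307 to 2515 probe sets lay above and 474 to 2791 below, with 4 to 94 above-range and 6 to 91 below-range members selected again; the lowest were without SG747. BILs against parents gave 1 to 89. Between yield groups 25 to 774 passed p and fold (25 without LY1, 46 without HY3, 274 without LY2, 415 without HY2, 774 without LY3), of them 0 to 8 members, and 1257 to 4747 probe sets and 24 to 49 members did not overlap, as fewer lines allow. The yield difference ranged from 0.027 to 0.75 for above-range rank 2, from -0.030 to 0.22 for below-range rank 1 and from -0.54 to 0.33 for below-range rank 2. With the replicate block 173 passed p and fold and 0 the adjusted threshold. The numbers were not taken as pairs, since the correlation of deviations from the group means between lines of one number was -0.24, 0.19 and 0.54. The cause of the changes was not tested except where fewer probe sets or arrays account for them. Depth is not defined for arrays; below a signal of about 16, the pseudocount, differences are compressed.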
